A study of Mus musculus with 9 samples.

Results

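Mouse macrophages cultured together with dorsal root ganglion (DRG) sensory neurons were compared with macrophages given only a low dose of transforming growth factor beta (TGF-β). The comparison takes 6 of the 9 libraries of the study, 3 from co-culture and 3 with TGF-β, chosen by their sample labels. It asks what co-culture gave beyond, or contrary to, the cytokine. All cells were bone marrow-derived macrophages of genotype Cx3cr1-gfp/+, in which 1 copy of the gene of the fractalkine receptor Cx3cr1 carries green fluorescent protein. The growth factor for all of them was M-CSF, the macrophage colony-stimulating factor, given at 50 ng/ml to the bone marrow. The macrophages were then kept alone (monoculture), with DRG neurons, or with TGF-β at 0.02 ng/ml, each labelled with a time of 5 d, and sorted on CD11b and CD64 before RNA extraction. The 3 monoculture libraries serve here as the level without either treatment. What other cells of the ganglion came with the neurons is not given in the labels. The study names 3 mice as the source, but not whether the same 3 mice served each condition, so p-values measure the spread between these libraries.

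TGF-β binds the receptors Tgfbr1 and Tgfbr2, which phosphorylate Smad2 and Smad3. These join Smad4 and switch on genes that include the pathway's own brakes, such as Smad7, Skil and Pmepa1. In the brain the cytokine is needed for the identity of microglia, the resident macrophages, and macrophages that lie against neurons in peripheral ganglia and nerves share part of that gene program. Macrophages also read interferons, cytokines that signal through STAT3, nucleotides and lipids, each with its own set of target genes.

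Depth was 133.8 to 308.8 M reads (M for mega) in co-culture and 46.8 to 151.6 M with TGF-β. Values are counts of reads scaled by a size factor for each library, called normalized counts below. On the first principal component (61.2% of variance) co-culture scored 62.5 to 71.3, TGF-β -24.6 to -23.8 and monoculture -44.9 to -39.3. The macrophage label held: Csf1r, the M-CSF receptor gene, was at 93742, 85297 and 79935 in co-culture and 78577, 83592 and 92945 with TGF-β (log2 difference 0.02 ± 0.10). Fibroblast genes were higher in the co-culture libraries. Their 17 measured markers summed to 7686 to 11123 normalized counts there and to 27.8 to 146 with TGF-β, where 5 of the 17 were at 0. Among the 5, Dcn, a matrix proteoglycan gene of fibroblasts, was at 33.3, 78.1 and 118 in co-culture. The Y-linked gene Ddx3y was at 57.8 and 58.5 in co-culture 2 and 3, whose macrophages were female by Xist, at 0 in TGF-β 2 and 3, and at 10040 in the male co-culture 1. What part RNA of other cells had in the differences below was not tested, and in bulk RNA fewer cells with a transcript and less of it per cell cannot be told apart.

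Of 16328 genes tested, 2189 (13.4%) were higher and 1939 (11.9%) lower in co-culture than with TGF-β at an adjusted p under 0.05. The median log2 difference over all of them was 0.01. A difference above 2-fold was called for 947 genes upward (5.80%) and 580 downward (3.55%). The same fit called 185 genes (1.13%) higher and 227 (1.39%) lower with TGF-β than in monoculture, 2.52% in all. The co-culture and TGF-β values did not overlap for 41.0% of the tested genes. Counts of list members below are to be read against 13.4% and 11.9%, or 12.1% and 12.7% where only genes with a value in both groups are counted. The mean level and the log2 difference of each tested gene are plotted here.

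**Figure D1:**
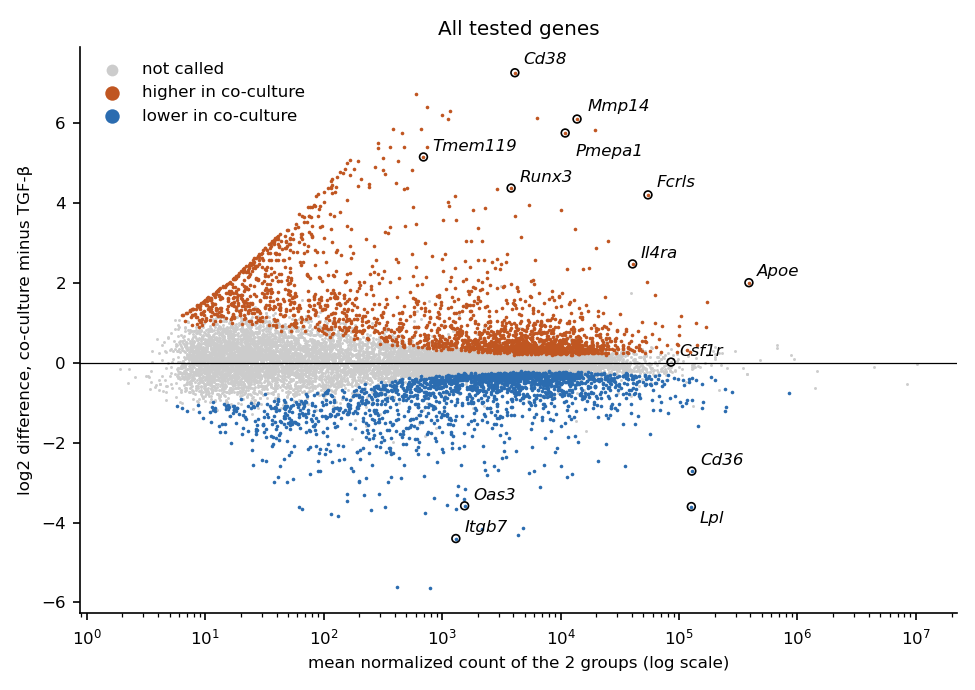
Each point is 1 of the tested genes, with the mean normalized count of the co-culture and TGF-β groups on the horizontal log axis and the log2 difference, co-culture minus TGF-β, on the vertical axis; orange and blue mark the 2189 genes higher and the 1939 lower in co-culture. Cd38 stands at the top at 7.27, Lpl and Cd36 are the circled genes of high level that were lower, and Csf1r lies at 0.02.

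Genes by which microglia are recognized were higher in co-culture than with TGF-β. Of 21 tested members of a microglia list, 14 were higher and 3 lower, with a median log2 difference of 0.93. The Fc receptor-like gene Fcrls was at 106390, 108728 and 96342 in co-culture 1 to 3 and at 5828, 6014 and 4988 with TGF-β 1 to 3 (log2 difference 4.21 ± 0.12, adjusted p = 5.27e-11). Its mean in co-culture was 18.5 times that with TGF-β, which itself stood above the monoculture mean of 618. P2ry12, a receptor with which microglia follow nucleotides, was at 5701, 5116 and 4937 and at 1568, 1250 and 1343 (log2 difference 1.92 ± 0.11, adjusted p = 2.62e-08). Gpr34, a lysophosphatidylserine receptor gene, was at 5666, 4649 and 4652 and at 1066, 673 and 723 (log2 difference 2.61 ± 0.19, adjusted p = 4.94e-07). For these 3 genes every co-culture library lay above every TGF-β library, and TGF-β in turn lay above monoculture.

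Cx3cr1 differed less. It was at 10571, 11181 and 7826 in co-culture and at 4340, 5072 and 3238 with TGF-β (log2 difference 1.23 ± 0.16, adjusted p = 8.93e-05), against a monoculture mean of 314. The groups did not overlap, but most of the distance from monoculture was already there with TGF-β (log2 3.68 over monoculture). Tmem119, which encodes a microglial membrane protein, showed the other arrangement. Its values were 1709, 1562 and 820 in co-culture, 16.5, 26.2 and 40.9 with TGF-β and 52, 9.21 and 17 in monoculture (log2 difference 5.16 ± 0.43, adjusted p = 1.74e-06). TGF-β and monoculture overlapped for this gene (log2 0.20, adjusted p = 0.893), and its lowest co-culture library was that of replicate 3.

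Among genes for taking up dying cells and tagging debris, the receptor kinase Mertk was at 18174, 16266 and 13103 in co-culture and 4685, 4235 and 5168 with TGF-β (log2 difference 1.74 ± 0.11, adjusted p = 7.19e-08). C1qa, which encodes a chain of the complement starter C1q, was higher too (1.70 ± 0.11), as were its partner chains C1qc (0.93 ± 0.09) and C1qb (0.70 ± 0.09). In a list of apoptotic cell clearance, 8 of the 18 members with a value in both groups were higher and 1 lower (median 0.50). The lower one was Anxa1, annexin A1, at 24923, 21875 and 30007 in co-culture and 93345, 90515 and 79585 with TGF-β (log2 difference -1.79 ± 0.11, adjusted p = 5.81e-08). The 3 microglia list members that were lower in co-culture were the lipid receptor gene Trem2 (-0.61 ± 0.08), the selectin ligand gene Selplg (-0.48 ± 0.08) and Cst3, cystatin C (-0.50 ± 0.12).

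**Figure D2:**
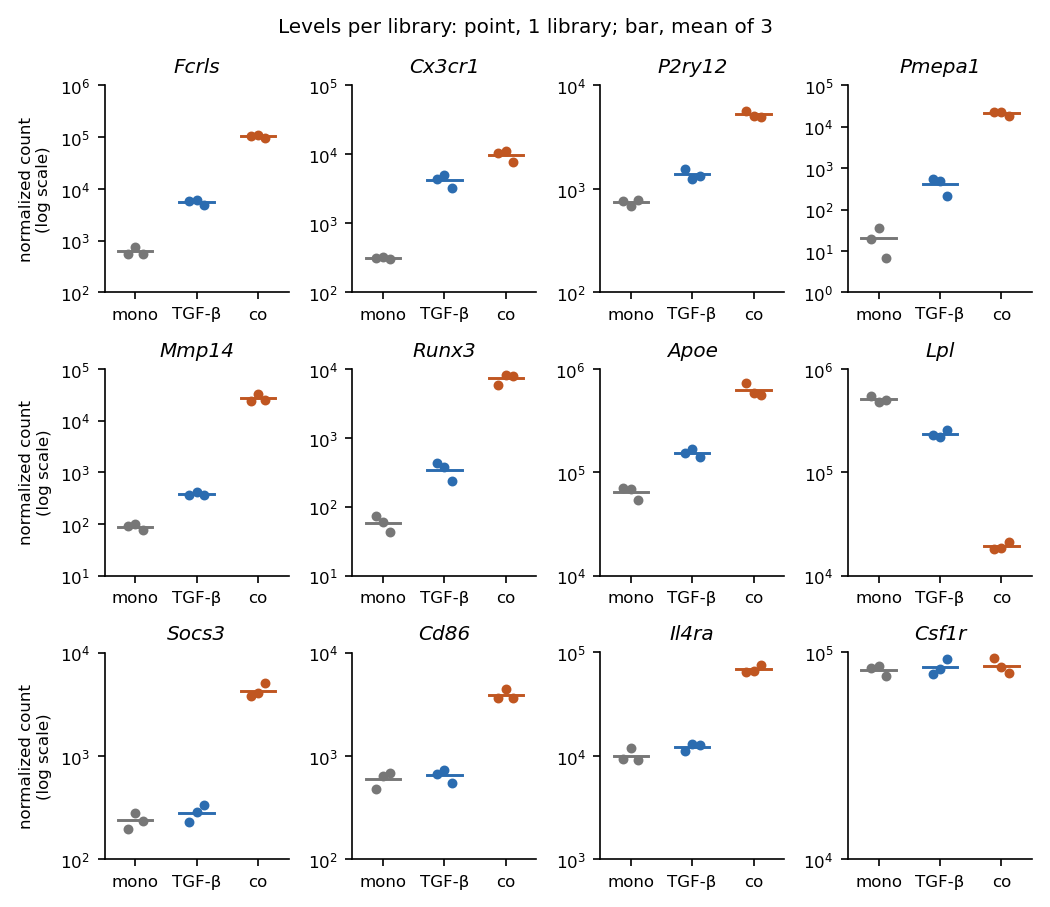
Normalized counts on a log axis for 12 genes in monoculture, with TGF-β and in co-culture (each point 1 library, bar the mean of 3). Fcrls, Cx3cr1, P2ry12, Pmepa1, Mmp14, Runx3 and Apoe step up from monoculture to TGF-β to co-culture, Lpl steps down, Socs3, Cd86 and Il4ra are high in co-culture, with TGF-β overlapping monoculture, and Csf1r is level.

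Target RNAs of the TGF-β pathway were mostly higher in co-culture than with TGF-β. Of 30 tested targets and feedback genes, 21 were higher in co-culture than with TGF-β and 3 lower (median 0.99). Pmepa1 (mm10 chromosome 2, 173224458 to 173276533, minus strand), a membrane protein gene that restrains SMAD signaling, was at 23263, 22419 and 18738 in co-culture and at 539, 503 and 209 with TGF-β (log2 difference 5.76 ± 0.43, adjusted p = 1.94e-05). With TGF-β it already exceeded its monoculture values of 19.5, 36.8 and 6.97, and the step to co-culture was larger than the spread of either group. Spsb1, whose SOCS-box protein marks the type II receptor for destruction, was at 3782, 3566 and 2853 and at 229, 229 and 225 (log2 difference 3.83 ± 0.14, adjusted p = 6.61e-10). Smad7, the inhibitory SMAD, was at 2510, 2374 and 2201 and 933, 833 and 761 (log2 difference 1.48 ± 0.12, adjusted p = 6.26e-07), and the SMAD repressor Skil at 17378, 15740 and 14235 and 8309, 7965 and 7340 (log2 difference 1.00 ± 0.10, adjusted p = 5.82e-06). The 3 that were lower were the cell cycle inhibitors Cdkn2b (-1.17 ± 0.21) and Cdkn1a (-0.48 ± 0.10) and the decoy receptor Bambi (-0.81 ± 0.16).

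By role in the pathway, 2 of the 3 ligand genes were higher, Tgfb2 without a value in both groups. Tgfb2 was at 12.5, 81.3 and 35.2 in co-culture and 3.76, 0 and 4.54 with TGF-β (adjusted p = 0.0119), and Tgfb3 at 152, 259 and 706 and 67.6, 111 and 81.8 (adjusted p = 0.0131). Both spread widely in co-culture. Fibroblasts and glia also make these ligands, fibroblast markers were higher in the same libraries, and their part was not tested. Tgfb1, the main ligand of macrophages, did not pass the test (log2 difference 0.10 ± 0.08, adjusted p = 0.423). A pair of genes that hold or activate latent TGF-β was higher from low values. Lrrc32, which displays it on the cell surface, was at 61.3, 177 and 133 against 3.01, 2.19 and 6.82. The activating integrin subunit Itgb8 was at 197, 49.2 and 64.5 against 1.5, 0 and 2.27. Tgfb2, Lrrc32 and Itgb8 were below 10 in every TGF-β library. They met the filter through co-culture, where they were high, so their calls are read as a description. Itgav, the partner of Itgb8 and Itgb5, was higher at 0.73 ± 0.10, and Itgb5 at 1.22 ± 0.10.

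Of the receptors, Tgfbr1 was at 29589, 31435 and 24478 in co-culture and 14108, 12211 and 11515 with TGF-β (log2 difference 1.17 ± 0.11, adjusted p = 2.94e-06), and Tgfbr2 at 34728, 32289 and 29635 and 17435, 16745 and 19125 (log2 difference 0.86 ± 0.09, adjusted p = 5.84e-06). Tgfbr2 had hardly moved with TGF-β alone (log2 0.16 over monoculture, adjusted p = 0.437), whereas Tgfbr1 was already higher there (0.88). The co-receptor genes were lower: Eng, endoglin, was at 1115, 1314 and 1303 and 3116, 3472 and 3941 (log2 difference -1.49 ± 0.11, adjusted p = 2.22e-07), and Tgfbr3 (-0.73 ± 0.21) and the type I receptor gene Acvrl1 (-0.61 ± 0.11) were lower too. Among signal carriers Smad3 was higher (0.78 ± 0.09) and so was Smad5 (0.64 ± 0.10), while Smad2 (-0.01, adjusted p = 0.93) and Smad4 (-0.08, adjusted p = 0.574) did not pass. In all, 13 of 25 pathway genes were higher and 3 lower. Of the 22 with a value in both groups, 10 were higher and 3 lower (median 0.38).

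Runx3, a transcription factor that TGF-β induces in several leukocytes, was among the named genes with the largest differences. It was at 5823, 8272 and 7808 in co-culture, 431, 378 and 236 with TGF-β and 74.7, 59.9 and 43.4 in monoculture (log2 difference 4.38 ± 0.23, adjusted p = 3.01e-08). The 3 groups were fully separated. Runx3 is 1 of 26 genes (0.243% of 10690 tested genes with a RefSeq promoter) that hold the SMAD palindrome GTCTAGAC on either strand within 250 bases before the RefSeq start. The stretch is printed to show that match, in capitals; the SMAD palindrome lies 175 bases before the start, inside an intron of the longer transcript in the annotation. No promoter of the 17 TGF-β target genes with an entry held these letters.
Runx3 (chr4:135152330-135152409, plus strand): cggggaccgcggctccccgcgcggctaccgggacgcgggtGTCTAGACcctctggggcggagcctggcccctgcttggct

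A second kind of gene was high in co-culture and, with TGF-β, within 0.25 (log2) of monoculture. Socs3 (mm10 chromosome 11, 117966079 to 117970047, minus strand), the brake on STAT3 signaling and one of its best known targets, was at 3762, 4070 and 5025 in co-culture, 228, 286 and 334 with TGF-β and 196, 284 and 236 in monoculture (log2 difference 3.88 ± 0.17, adjusted p = 3.62e-09). TGF-β and monoculture overlapped and co-culture stood apart, its mean 15.1 times that with TGF-β. The matching letters of a STAT motif (TTCNNNGAA, either strand) occur 154 bases before the RefSeq start of Socs3 and are shown in capitals. The stretch lies within the gene span given above, whose start is that of a noncoding transcript in the annotation. Of all such promoters 7.16% hold the motif, and of those of genes called higher 7.83%. In a list of STAT3 and cytokine receptor genes 2 of 19 promoters hold it, those of Socs3 and of Il1r2, which was not called.
Socs3 (chr11:117969481-117969560, minus strand): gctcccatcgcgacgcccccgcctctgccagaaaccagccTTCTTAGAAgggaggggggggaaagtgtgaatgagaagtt

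Other genes of cytokine signaling were higher too. Of 24 tested genes in a STAT3 and cytokine receptor list, 14 were higher and 3 lower; of the 21 with a value in both groups 12 were higher and 3 lower (median 0.75). The interleukin 4 receptor gene Il4ra was at 64315, 66876 and 75230 in co-culture, 11123, 12995 and 12878 with TGF-β and 9302, 11822 and 9106 in monoculture (log2 difference 2.48 ± 0.11, adjusted p = 3.11e-09), and its partner chain Il13ra1 at 2372, 2374 and 2409 and 706, 664 and 402 (log2 difference 2.04 ± 0.19, adjusted p = 4.49e-06). Both receptor chains were above every TGF-β library in all co-culture libraries. The cytokine gene Osm, oncostatin M, was higher, at 1973, 1714 and 1515 against 600, 730 and 623 (adjusted p = 3.79e-06), as were Stat3 (0.85 ± 0.10), Jak3 (0.96 ± 0.14) and the common beta chain receptor gene Csf2rb (0.81 ± 0.10). Socs2, a brake on growth hormone and cytokine receptors, was at 343, 349 and 250 and 39.8, 41.5 and 31.8 (2.75 ± 0.34). Il6st, the shared receptor chain gp130, was lower (-0.75 ± 0.11), and so were Il10 (-1.19 ± 0.23) and Csf2ra (-0.52 ± 0.09). Csf3r, at 0.65 ± 0.22, passed with an adjusted p of 0.0488 and missed under 11 of 17 alternatives.

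Cd86, the costimulator that T cells need, was at 3628, 4449 and 3650 in co-culture, 670, 725 and 548 with TGF-β and 484, 641 and 679 in monoculture (log2 difference 2.58 ± 0.15, adjusted p = 3.17e-08). Mtus1, a microtubule-associated gene, was at 10551, 7984 and 6672 against 899, 874 and 984 (log2 difference 3.15 ± 0.14, adjusted p = 2.76e-09), and the transporter gene Abcg3 at 5056, 6632 and 4488 against 1121, 780 and 943 (log2 difference 2.49 ± 0.18, adjusted p = 9.16e-07). In each of these 3 genes TGF-β and monoculture overlapped. Arg1, arginase 1, an enzyme of alternatively activated macrophages, was at 2890, 2776 and 17617 in co-culture and 495, 496 and 261 with TGF-β (log2 difference 3.67 ± 0.74, adjusted p = 0.013). Co-culture 3 was far above the other 2 co-culture libraries; without it the log2 difference was 2.79 (adjusted p = 4.85e-06). The gap junction gene Gja1 (2.40 ± 0.20), the matricellular genes Thbs1 (at 30131, 21623 and 63025 against 674, 492 and 636) and Sparc (at 1595, 2395 and 2664 against 18.8, 101 and 0) also met this rule. Fibroblasts and glia express all 3 strongly, and the part of their RNA in these genes was not tested. Thbs1 was lowest in co-culture 2 and highest in co-culture 3. Without TGF-β 2 the Sparc difference was 7.0, and without TGF-β 3 it was 5.27, against 6.10 with all libraries. Arg1 belongs to a list of alternative activation genes that went both ways. Of its 11 tested members 4 were higher (Arg1, Tgm2, Il4ra and Mrc1) and 3 lower (Clec10a, Klf4 and Mgl2). Of the 8 with a value in both groups 4 were higher and 2 lower (median 1.11).

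With lists of other cell types left out, genes lower in co-culture and within 0.25 of monoculture with TGF-β were led by Fam83f, a gene of a casein kinase-binding family, at 189, 243 and 374 in co-culture, 2778, 2736 and 2932 with TGF-β and 3322, 3502 and 3177 in monoculture (log2 difference -3.40 ± 0.18, adjusted p = 4.64e-08). Clec12a, an inhibitory lectin receptor that senses dead cells, was at 6138, 5010 and 5633, 23824, 22582 and 20278 and 24697, 19617 and 23179 (log2 difference -1.99 ± 0.10, adjusted p = 1.51e-08). S100a6, a calcium-binding protein gene, was at 9470, 8736 and 10335, 35949, 46652 and 35262 and 43447, 27352 and 39469 (log2 difference -2.04 ± 0.16, adjusted p = 2.91e-06). Co-culture lay below both other groups in all 3 genes. Hmgn3, a nucleosome-binding protein gene (-2.13 ± 0.11), Glipr1 (-1.86 ± 0.09) and the small GTPase gene Rnd3 (-1.83 ± 0.13) followed, and the interferon-induced genes Rtp4 and Ifi27l2a are described with their group.

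Most interferon-stimulated genes had less RNA in co-culture. Of 30 tested members 23 were lower in co-culture than with TGF-β and 0 higher (median -1.21). The antiviral oligoadenylate synthetase gene Oas3 was at 293, 152 and 270 in co-culture and 2812, 2620 and 3152 with TGF-β (log2 difference -3.58 ± 0.20, adjusted p = 1.14e-07). Rtp4, a brake on interferon responses, was at 493, 328 and 427 and 2326, 2697 and 2386 (log2 difference -2.56 ± 0.14, adjusted p = 2.38e-08), with monoculture at 2725, 2418 and 3071. Usp18, which removes the ubiquitin-like Isg15 from proteins, was at 114, 86 and 142 and 566, 597 and 520 (log2 difference -2.23 ± 0.18, adjusted p = 7.01e-07). In each, the highest co-culture library was below the lowest TGF-β library.

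Further members were the transcription factor Irf7 (-1.77 ± 0.15), the antiviral genes Rsad2 (-2.03 ± 0.24), Ifit1 (-2.11 ± 0.22), Oas2 (-2.08 ± 0.36) and Isg15 (-1.26 ± 0.17), and the membrane protein gene Ifitm3 (-1.70 ± 0.33). Irf9, part of the factor that reads type I interferon, was lower by less (-0.61 ± 0.08). Its partner Stat2 (-0.16, adjusted p = 0.202) did not pass, nor did tetherin, Bst2 (0.20, adjusted p = 0.242). Ifi27l2a, a mitochondrial protein gene outside the list, was at 2396, 1520 and 2612 in co-culture and 12438, 11916 and 12994 with TGF-β (log2 difference -2.55 ± 0.24, adjusted p = 6.47e-05).

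Several genes of the guanylate-binding protein family, which interferon gamma also induces, were higher. Gbp8 was at 847, 1224 and 621 in co-culture and 51.9, 61.2 and 109 with TGF-β (log2 difference 3.44 ± 0.30, adjusted p = 1.29e-06), Gbp7 at 3708, 3712 and 3096 and 937, 693 and 943 (log2 difference 2.03 ± 0.14, adjusted p = 2.05e-07) and Gbp3 at 2007, 1982 and 1557 and 500, 621 and 627 (log2 difference 1.65 ± 0.14, adjusted p = 1.33e-06). The gene listed as Gbp5, which by its identifier is now Gbp2b, was higher as well (1.94 ± 0.27), and so were Gbp9 (0.81 ± 0.16) and, from low values, Gbp4 (1.55 ± 0.45, adjusted p = 0.0211; lost under 5 of the 16 alternatives that gave it a value). Gbp2 did not pass (-0.00, adjusted p = 0.985). Of the immunity-related GTPase genes, Tgtp2 (-1.60 ± 0.23) and Irgm1 (-0.37 ± 0.08) were lower, and Irgm2 (-0.07, adjusted p = 0.659), Igtp (-0.35, adjusted p = 0.127) and Iigp1 (-0.19, adjusted p = 0.76) did not pass. Gvin1, a very large inducible GTPase, was lower (adjusted p = 0.00294). In all, 6 of 14 tested members of this list were higher and 3 lower (median 0.19). These genes are close copies of each other, Gbp4, Gbp8 and Gbp9 overlap in the annotation, and how shared reads were assigned is not given in the sources used here.

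**Figure D3:**
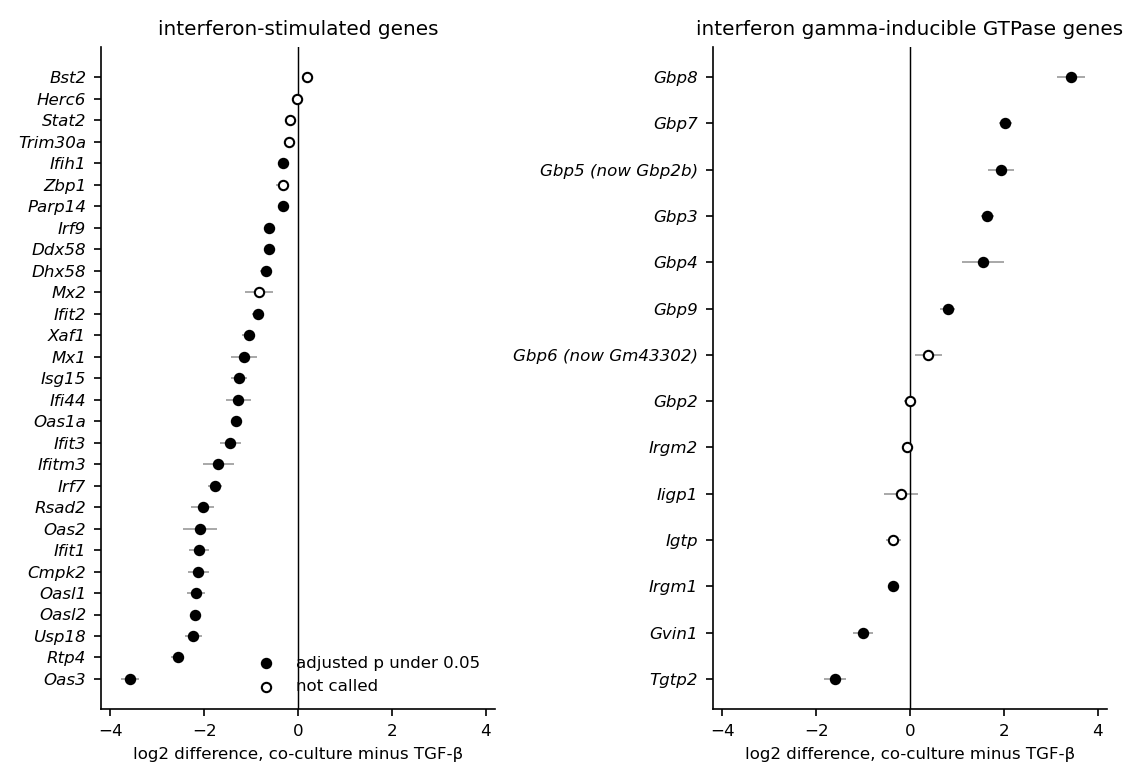
Log2 difference, co-culture minus TGF-β, for 29 tested members of the interferon-stimulated list (left) and the interferon gamma-inducible GTPase list (right); bars are the standard error of the fit, filled points passed at adjusted p under 0.05. On the left 23 of 29 points are filled and lie below 0; on the right 6 Gbp points are filled above 0 and 3 points below.

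Promoters of both lists were searched for the interferon-stimulated response element (ISRE). The motif GAAA, any 2 bases, GAAA on either strand, within 250 bases before the RefSeq start, occurred in 360 of 10690 tested genes with a promoter entry (3.37%). They occurred in 9 of 21 interferon-stimulated genes with an entry (42.9%) and in 8 of 8 GTPase genes (100%), genes that were higher, lower and not called alike. The stretches below show the element in promoters of genes that were lower (Oas3, Rsad2, Ifit1, Isg15, Tgtp2) and higher (Gbp7, Gbp5) in co-culture. Each is 80 bases long and upstream of the start, from RefSeq's GRCm38.p6 table, printed 5′ to 3′ on the gene's strand. Capitals mark every match; TTTC forms are the element on the opposite strand, and overlapping matches run together.
Oas3 (chr5:120777695-120777774, minus strand): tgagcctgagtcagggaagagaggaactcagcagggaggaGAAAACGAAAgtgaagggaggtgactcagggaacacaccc
Rsad2 (chr12:26456533-26456612, minus strand): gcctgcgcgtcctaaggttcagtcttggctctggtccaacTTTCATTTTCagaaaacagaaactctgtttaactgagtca
Ifit1 (chr19:34640745-34640824, plus strand): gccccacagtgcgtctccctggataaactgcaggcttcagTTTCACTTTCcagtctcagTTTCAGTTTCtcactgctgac
Isg15 (chr4:156200857-156200936, minus strand): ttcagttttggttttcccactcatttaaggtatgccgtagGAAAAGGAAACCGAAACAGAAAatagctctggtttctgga
Tgtp2 (chr11:49064243-49064322, minus strand): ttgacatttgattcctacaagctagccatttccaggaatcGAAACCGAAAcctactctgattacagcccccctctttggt
Gbp7 (chr3:142530243-142530322, plus strand): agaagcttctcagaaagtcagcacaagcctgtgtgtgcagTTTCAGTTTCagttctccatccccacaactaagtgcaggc
Gbp5 (now Gbp2b) (chr3:142594670-142594749, plus strand): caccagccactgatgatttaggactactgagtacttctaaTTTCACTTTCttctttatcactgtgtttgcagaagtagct
The first match in each stretch begins 75 bases before the start in Oas3, 120 in Rsad2, 104 in Ifit1, 78 in Isg15, 70 in Tgtp2, 53 in Gbp7 and 137 in Gbp5. A match is a description of these letters and was not tested as a binding site.

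Lipid handling split between uptake and release. Apoe, the lipid carrier that macrophages secrete, was at 734626, 579801 and 560087 in co-culture and 153808, 167493 and 140740 with TGF-β (log2 difference 2.01 ± 0.13, adjusted p = 9.44e-08). Abca1, the exporter that loads cholesterol onto such carriers, was at 29974, 29960 and 26672 and 5096, 4978 and 6858 (log2 difference 2.37 ± 0.11, adjusted p = 6.83e-09). TGF-β had not moved Abca1 past the test (log2 0.14 over monoculture, adjusted p = 0.641), while Apoe was already higher with it (1.26). Of 17 tested targets of the oxysterol receptor LXR, 9 were higher and 1 lower (median 0.38 over the 16 with a value in both groups). Nr1h3, which encodes LXR alpha, was among the 9 (0.51 ± 0.16), with the desaturase genes Scd2 (1.31 ± 0.10) and Scd1 (1.47 ± 0.23). The lower one was the phospholipid transfer protein gene Pltp (-2.11 ± 0.24).

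On the uptake side, Lpl, lipoprotein lipase, was at 18105, 18736 and 21171 in co-culture and 228763, 220047 and 255611 with TGF-β (log2 difference -3.60 ± 0.10, adjusted p = 3.66e-11). The fatty acid receptor gene Cd36 was at 32957, 26616 and 43789 and 253894, 221839 and 190940 (log2 difference -2.71 ± 0.16, adjusted p = 1.14e-07), and Pparg, the nuclear receptor that drives both genes, at 394, 506 and 435 and 2007, 1803 and 2173 (log2 difference -2.14 ± 0.13, adjusted p = 5.81e-08). All co-culture values of the 3 genes were under all TGF-β values. Of 20 lipid uptake and storage genes 7 were lower and 3 higher (median 0.04); Fabp5, a fatty acid-binding protein gene, was one of the higher ones (0.92 ± 0.10). Cholesterol synthesis genes gave 5 higher and 0 lower of 21 (median 0.16), led by Tm7sf2 (0.61 ± 0.13) and Hmgcs1 (0.58 ± 0.09). Without TGF-β 2, 8 were higher, and without TGF-β 3, 1 was lower.

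Genes of antioxidant defence and iron storage, many of them targets of NRF2, were mostly lower: 13 of 18 tested were lower and 2 higher (median -0.74). Nqo1, a quinone reductase and standard NRF2 target, was at 191, 253 and 184 in co-culture and 1081, 1158 and 736 with TGF-β (log2 difference -2.18 ± 0.18, adjusted p = 6.44e-07). Srxn1, sulfiredoxin, was at 6735, 6514 and 6901 and 15866, 18144 and 16853 (log2 difference -1.33 ± 0.08, adjusted p = 5.14e-08). The ferritin chains Fth1 (-0.75 ± 0.14) and Ftl1 (-0.72 ± 0.12), the transferrin receptor gene Tfrc (-0.72 ± 0.13) and the glutathione synthesis genes Gclm (-0.79 ± 0.16) and Gclc (-0.59 ± 0.09) were lower too. The cystine transporter Slc7a11 was an exception at 1005, 1292 and 781 against 208, 205 and 141 (log2 difference 2.40 ± 0.21, adjusted p = 1.23e-06), and the iron exporter Slc40a1 the other (0.61 ± 0.15). Without TGF-β 1, 1 of the list was higher. Hmox1, heme oxygenase 1, did not pass (-0.20, adjusted p = 0.346).

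Antigen presentation divided by step. The class II chains were lower in co-culture: H2-Aa was at 12.8, 5.47 and 9.3 against 67.6, 89.6 and 29.5 with TGF-β (log2 difference -1.83 ± 0.36, adjusted p = 0.00171), and H2-Ab1 at 114, 117 and 112 against 331, 212 and 252 (log2 difference -1.12 ± 0.31, adjusted p = 0.0168). Monoculture was at 6.49, 6.91 and 6.2 for H2-Aa and at 177, 57.6 and 110 for H2-Ab1, overlapping co-culture for both. TGF-β minus monoculture was 2.03 for H2-Aa (adjusted p = 0.00777), and for H2-Ab1 it did not pass (adjusted p = 0.0558). H2-Ab1 missed the threshold between co-culture and TGF-β without TGF-β 1 (log2 -0.95, adjusted p = 0.0855). Ciita, the master activator of class II genes, was at 2.08, 1.56 and 0 and 18.8, 19.7 and 25, and the invariant chain Cd74 at 607, 539 and 544 and 923, 1045 and 966 (log2 difference -0.78 ± 0.13, adjusted p = 4.09e-04). Each of these 4 genes was lower in all co-culture libraries than in any TGF-β library. The peptide loaders were higher: H2-DMa at 1269, 1455 and 1168 against 501, 500 and 377 (log2 difference 1.48 ± 0.15, adjusted p = 5.71e-06), H2-DMb2 (2.18 ± 0.33) and H2-DMb1 (0.52 ± 0.13). The list of 14 gave 6 higher and 6 lower, or 6 and 4 of the 12 with a value in both groups (median 0.52). H2-Aa and Ciita were the lower ones without a value in both groups. H2-Aa met the filter through its TGF-β libraries, where it was high, so its p-value is read as a description. Ciita was below 10 in every co-culture library and met the filter with its TGF-β libraries, where it was higher. Its call is read in the same way. With a filter at 50 instead of 10, 3 of the list's 10 tested members were lower.

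Inflammatory mediators were uneven. The interleukin 1 genes were higher from low values, Il1b at 300, 270 and 220 in co-culture and 3.01, 10.9 and 18.2 with TGF-β (log2 difference 3.78 ± 0.32, adjusted p = 1.14e-06) and Il1a at 117, 109 and 78.4 and 3.76, 4.37 and 0 (log2 difference 3.13 ± 0.40, adjusted p = 4.83e-05), while the interleukin 1 antagonist gene Il1rn was lower (-0.99 ± 0.17). Il1a was below 10 in every TGF-β library and met the filter through co-culture, where it was high, so its p-value is read as a description. The signaling adaptor Traf1 was at 91.5, 88.3 and 121 and 761, 723 and 920 (log2 difference -2.88 ± 0.18, adjusted p = 5.45e-08). Tnf (-0.70 ± 0.14) and the chemokines Ccl3 (-0.56 ± 0.11), Ccl4 (-0.72 ± 0.13) and Cxcl2 (-1.30 ± 0.32) were lower. Of 23 tested genes 5 were higher and 8 lower, or 4 and 8 of the 20 with a value in both groups (median -0.33). Without TGF-β 1 or 3, or without co-culture 1 or 2, 3 of the 23 were higher.

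Receptors for chemokines, nucleotides and matrix also set the groups apart. Ccr1 was at 31592, 34097 and 40108 in co-culture and 5019, 5780 and 3652 with TGF-β (log2 difference 2.89 ± 0.15, adjusted p = 7.87e-08), and Cmklr1, the chemerin receptor gene, at 3914, 4184 and 2917 and 389, 310 and 320 (log2 difference 3.39 ± 0.32, adjusted p = 2.93e-05). Cxcr3, which reads interferon-induced chemokines, was lower, at 144, 108 and 132 and 518, 577 and 380 (log2 difference -1.85 ± 0.20, adjusted p = 1.06e-05). The 14 tested genes of that list gave 6 higher and 4 lower (median 0.74). Of 15 purinergic genes 8 were higher and 2 lower (median 0.72 over the 14 with a value in both groups); 1 was lower without TGF-β 1 or 2, or without co-culture 1 or 2. Besides P2ry12 they held the nucleotide receptor gene P2ry13, at 3691, 3684 and 2940 and 640, 564 and 509 (log2 difference 2.57 ± 0.14, adjusted p = 2.28e-08), and the ectoenzyme genes Entpd1 (1.53 ± 0.11) and Nt5e (2.15 ± 0.28), which break extracellular nucleotides down to adenosine. P2ry1 was lower (-1.11 ± 0.12). Cd38, an ectoenzyme that consumes NAD and the first by size of the 12 named for a large difference upward, was at 4539, 7650 and 12377 in co-culture, 22.5, 72.1 and 34.1 with TGF-β and 9.74, 20.7 and 8.52 in monoculture (log2 difference 7.27 ± 0.40, adjusted p = 1.56e-07; mm10 chromosome 5, 43868553 to 43912375, plus strand). Its co-culture values spread widely and still lay far above the others.

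Integrin genes gave 7 higher and 2 lower of 18, or 6 and 2 of the 16 with a value in both groups (median 0.25). Itgax, the CD11c gene, was at 3259, 4812 and 3498 in co-culture and 407, 570 and 391 with TGF-β (log2 difference 3.05 ± 0.28, adjusted p = 2.80e-05), and Itga9 at 8734, 12889 and 9911 and 1726, 1521 and 1927 (log2 difference 2.59 ± 0.14, adjusted p = 2.26e-08). Itgb7, whose partner chains guide leukocytes to the gut, was at 80.4, 64.9 and 235 and 2666, 2393 and 2400 (log2 difference -4.40 ± 0.40, adjusted p = 9.69e-05), with co-culture 3 the highest of its group. Mmp14 (mm10 chromosome 14, 54431612 to 54445364, plus strand), the membrane-anchored collagenase, was at 23810, 32545 and 25185 in co-culture and 364, 420 and 361 with TGF-β (log2 difference 6.11 ± 0.14, adjusted p = 6.83e-12). Its groups were separated by a mean ratio of 71.2, and its TGF-β values already exceeded the monoculture values of 90.9, 99 and 77.5. Of 20 proteases and inhibitors 9 were higher and 5 lower, or 7 and 5 of the 17 with a value in both groups (median -0.04). Mmp2, at 1035, 991 and 793 and 2.25, 52.4 and 4.54, and Timp3, at 143, 145 and 237 and 0, 17.5 and 0, are made strongly by fibroblasts, as is fibronectin, Fn1, at 13016, 13113 and 11246 and 207, 297 and 72.7. Fibroblast markers were higher in the same libraries, and their part in these 3 genes and in Mmp14 was not tested. Without TGF-β 2 the Mmp2 difference was 6.14, against 5.40 with all libraries.

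Genes that can act on neurons were split. Of 21 axon guidance and trophic genes with a value in both groups 7 were higher and 6 lower (median 0.10); of all 24 tested, 10 were higher and 6 lower, and 6 were higher without TGF-β 2. The semaphorin genes Sema4b, at 2981, 3945 and 2842 in co-culture and 649, 723 and 934 with TGF-β (log2 difference 2.07 ± 0.17, adjusted p = 8.16e-07), and Sema4c (1.64 ± 0.13) were higher. Igf1, a growth factor that macrophages supply to neurons, was at 24778, 22476 and 22735 and 56563, 57119 and 53061 (log2 difference -1.25 ± 0.09, adjusted p = 1.57e-07). The adhesion gene L1cam was at 624, 598 and 597 and 4001, 3571 and 4315 (log2 difference -2.68 ± 0.10, adjusted p = 6.61e-10). Co-culture was under TGF-β in every library for both.

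**Figure D4:**
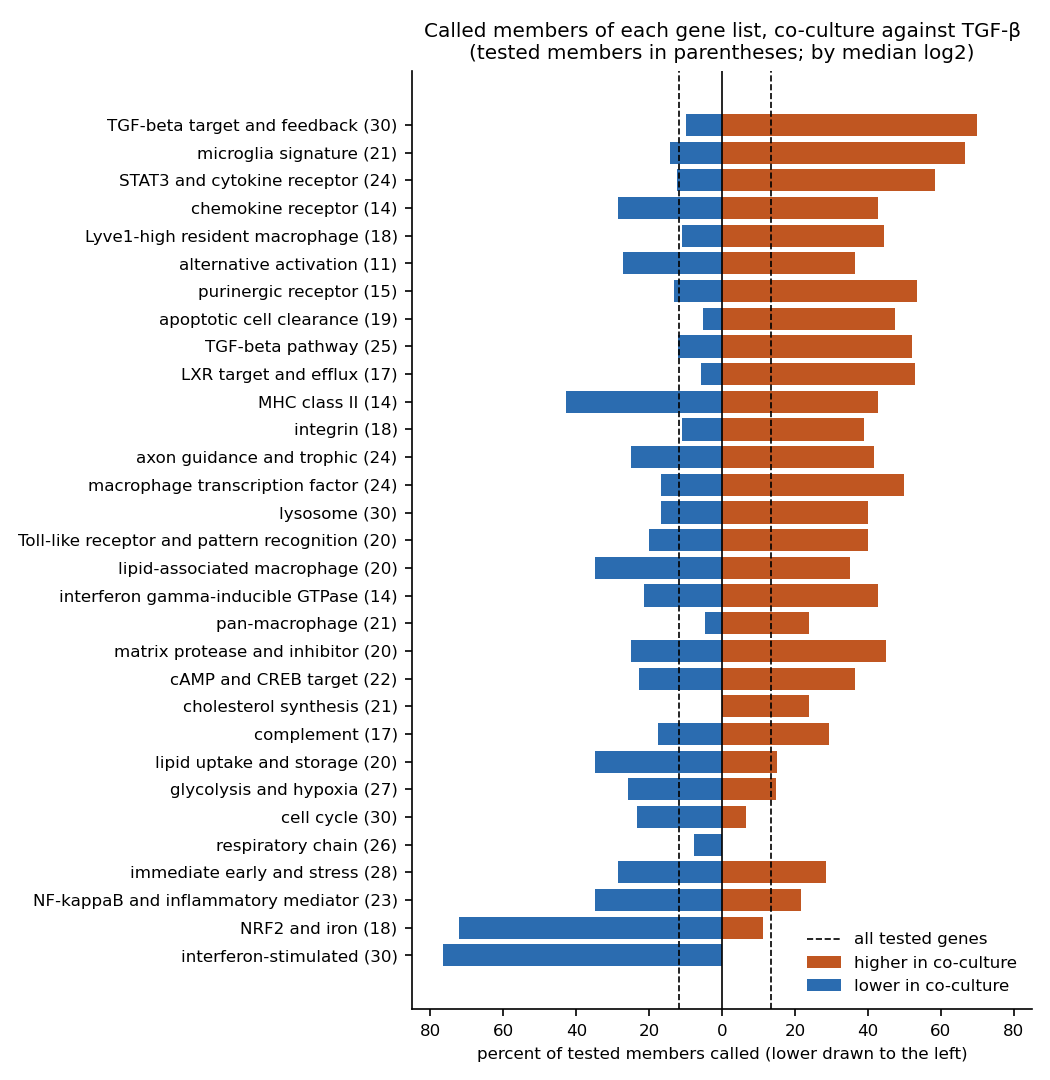
Percent of the tested members of each of 31 macrophage gene lists that were higher (orange, to the right) or lower (blue, to the left) in co-culture than with TGF-β, with the number tested in parentheses and the lists ordered by median log2 difference; dashed lines mark 13.4% and 11.9%, the shares over all tested genes. The TGF-β target list has the highest share upward, 21 of 30, and the interferon-stimulated list the highest downward, 23 of 30.

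The other named genes of large difference served several functions. Higher in co-culture were Ms4a4a, a tetraspan gene of macrophages, at 10133, 9885 and 10543 against 741, 459 and 802 with TGF-β (log2 difference 3.95 ± 0.20, adjusted p = 5.39e-08), the myeloid receptor gene Treml2 (4.02 ± 0.23), the glycosyltransferase gene Gcnt2 (4.35 ± 0.29) and the globin-like gene Adgb (4.18 ± 0.53). Lower were Nptx1, a neuronal pentraxin, at 334, 216 and 894 against 8679, 7653 and 8331 (log2 difference -4.32 ± 0.48, adjusted p = 7.60e-04), and Flrt2, a cell adhesion and axon repulsion gene, at 198, 156 and 357 against 4408, 3957 and 4029 (log2 difference -4.15 ± 0.24, adjusted p = 1.01e-06). Cpe, carboxypeptidase E, was at 169, 262 and 282 against 2166, 2373 and 2732 (log2 difference -3.32 ± 0.16, adjusted p = 9.03e-09). For Nptx1 and Flrt2 co-culture 3 was the highest of its group, still under every TGF-β library. The collagen genes Col4a5 (-3.67 ± 0.33) and Col18a1 (-2.85 ± 0.19), the transcription regulator Tox2 (-3.17 ± 0.13), Tnip3, an inhibitor of NF-κB signaling (-3.12 ± 0.12), and Efr3b (-3.08 ± 0.12) were lower as well.

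By the rule set for contrary genes, none was found. The rule asked for co-culture and TGF-β each at least 1 (log2) from monoculture on opposite sides, with monoculture values between, and 0 of 2316 called genes of above-median level with separated groups met this. Of the same 2316, 0 had TGF-β at least 1 from monoculture with co-culture within 0.25 of it. H2-Aa and H2-Ab1, below that level, had this arrangement of log2 differences, with co-culture minus monoculture at 0.20 and 0.12. H2-Aa met the filter on low values through its TGF-β libraries. Genes with TGF-β the highest or lowest of the 3 groups are given as examples, chosen after their values were seen. Both differences of such a gene use the same TGF-β libraries, so the values stand side by side below as a description.

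Cd109, a co-receptor that dampens TGF-β signaling, was at 2395, 2379 and 1983 in monoculture, 4314, 3933 and 3704 with TGF-β and 1890, 1471 and 1464 in co-culture (co-culture minus TGF-β, log2 difference -1.31 ± 0.12, adjusted p = 1.67e-06). It was above monoculture with TGF-β (log2 0.82) and below it in co-culture (-0.49). Spn, the sialophorin CD43, had the same order, at 2036, 1742 and 1790, 2430, 2701 and 2675 and 1081, 1301 and 1179 (log2 difference -1.13 ± 0.10, adjusted p = 2.02e-06). Ccr2, the receptor that draws monocytes to tissue, was at 133, 131 and 144, 483, 430 and 334 and 158, 201 and 237 (log2 difference -1.03 ± 0.20, adjusted p = 0.00173), so that co-culture lay a little above monoculture and TGF-β well above both. Cd24a, a sialoglycoprotein gene, was at 193, 227 and 154, 574, 778 and 461 and 236, 225 and 257 (log2 difference -1.27 ± 0.21, adjusted p = 3.88e-04). Ramp1, which makes a receptor respond to the sensory neuropeptide CGRP, was at 229, 235 and 253, 603, 750 and 498 and 375, 372 and 225 (log2 difference -0.92 ± 0.21, adjusted p = 0.00478). Its partner receptor gene Calcrl was lower in co-culture too (-1.29 ± 0.11), with TGF-β already under monoculture (-0.66). TGF-β was also the highest group for Cmah (-1.03 ± 0.20), which modifies sialic acid, and for Alox5, the leukotriene-forming lipoxygenase (-0.46 ± 0.10).

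In the opposite direction, the growth factor gene Hbegf was at 427, 403 and 374 in monoculture, 129, 151 and 120 with TGF-β and 235, 217 and 258 in co-culture (log2 difference 0.79 ± 0.17, adjusted p = 0.00403). TGF-β was lowest and co-culture lay between. Ak8, an adenylate kinase (0.81 ± 0.18), and Ttc39b, a regulator of LXR (0.71 ± 0.10), were likewise lowest with TGF-β.

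**Figure D5:**
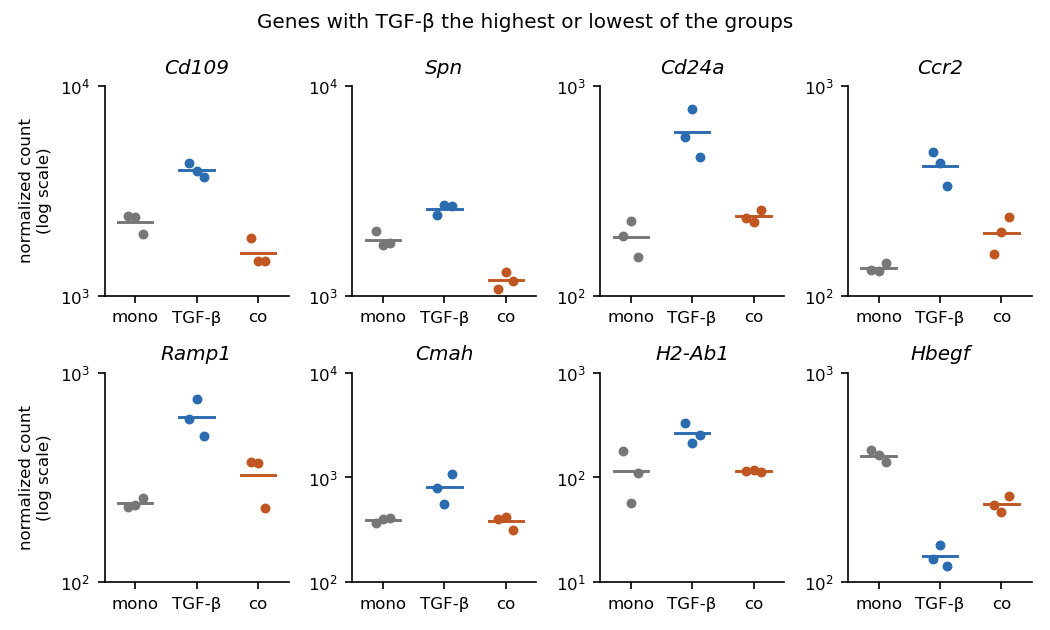
Normalized counts on a log axis for 8 genes whose TGF-β libraries are the highest or lowest of the 3 groups (each point 1 library, bar the mean of 3). Cd109 and Spn are highest with TGF-β and lowest in co-culture, the TGF-β libraries of Cd24a, Ccr2, Ramp1, Cmah and H2-Ab1 lie above co-culture, and those of Hbegf lie below it.

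Markers of other cells that a ganglion culture can hold were checked list by list. All 15 tested fibroblast markers were higher in co-culture, but 2 of them had a value in both groups. Col1a1 was at 1818, 2590 and 2561 in co-culture and 2.25, 43.7 and 27.3 with TGF-β. Of 16 tested genes of Schwann cells and satellite glia 7 were higher and 4 lower; of the 9 with a value in both groups 0 were higher and 4 lower. The nerve growth factor receptor gene Ngfr was at 261, 209 and 233 and at 0 in all TGF-β libraries, at least 174-fold higher against a floor of 3 reads over the TGF-β group, a floor that covers counting error only. Of 5 tested sensory neuron genes, Tubb3 (2.29 ± 0.41) and Nefh (1.34 ± 0.31) were higher, and Prph and Avil did not pass. Against monoculture, Tubb3 passed (log2 1.68, adjusted p = 0.00562) and Nefh did not (0.62, adjusted p = 0.15). Uchl1, a ubiquitin hydrolase, was lower in co-culture, at 549, 431 and 562 against 8853, 10703 and 8049 with TGF-β (log2 difference -4.13 ± 0.12, adjusted p = 5.27e-11). Of 7 tested endothelial genes 3 were higher and 1 lower. Pecam1, an adhesion gene of endothelium and leukocytes, was at 245, 285 and 366 against 38.3, 56.8 and 27.3 (log2 difference 2.63 ± 0.33, adjusted p = 3.87e-05), Cdh5, the cadherin of endothelial junctions, at 225, 201 and 256 against 78.9, 69.9 and 70.4 (log2 difference 1.51 ± 0.22, adjusted p = 1.46e-04), and the receptor gene Flt1 passed with an adjusted p of 0.0407 and missed under 9 of 17 alternatives. Vwf, von Willebrand factor, was lower (-0.90 ± 0.11), and without TGF-β 3 a total of 2 endothelial genes were lower. Their part in other differences was not tested. The nociceptor genes Trpv1 and Calca did not pass the filter on low values.

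Of 21 tested general macrophage genes, 15 did not pass the test, 5 were higher and 1 was lower (median 0.18). Over all tested genes, 12200 of 16328 did not pass. The inhibitory Fc receptor gene Fcgr2b (2.36 ± 0.11), Aif1, the IBA1 antigen (2.08 ± 0.12), and the sialic acid receptor Cd33 (1.79 ± 0.12) were higher, and the endotoxin co-receptor Cd14 was lower (-0.76 ± 0.18). The sort antigen genes Itgam (0.22, adjusted p = 0.105) and Fcgr1 (0.30, adjusted p = 0.0513) and Emr1, the F4/80 gene (-0.30, adjusted p = 0.0608), did not pass. With quantile normalization 11 of the 21 were higher, and without co-culture 1, 2 were lower.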

How the data were processed

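Libraries were made from RNA of sorted macrophages, with the SMART-Seq Stranded chemistry named in the labels' protocols. The submitters' processing notes name bcl2fastq 2.20, STAR 2.7.3, DESeq2 1.24.0, R 3.6.1 and mm10; the counting program, strand use and annotation are not given in the sources used here. The deposited signal values of 24607 genes are counts of reads scaled by a size factor for each library, as seen from the values themselves: whole multiples of 1 read for 100% of values within 0.05.

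The test was limma 3.58.1 (trend, robust) in R 4.3.3 on log2(value + 10), which understates the changes of low genes, for genes at 10 or more in at least 3 of 9 libraries. All 9 libraries entered 1 fit, p-values were adjusted by Benjamini-Hochberg over 16328 genes, and genes were called at 0.05. Differences are log2 ± standard error of the fit, n = 3 per group. A value in both groups means 10 or more in at least 2 libraries of each. Alternatives numbered 17, with edgeR 4.0.16 and DESeq2 1.42.0 on recovered reads among them. The fit was tested on simulated data.

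The 39 lists (788 of 810 genes in the table) and the comparison were chosen with earlier results of these data known. Genes named by rule were a set list, the 12 largest differences each way among called genes of above-median level with separated groups (gene models, mitochondrial, ribosomal, histone, receptor segment and other-cell-type genes left out), the 4 members of smallest p per list, and up to 8 each way within 0.25 of monoculture with TGF-β. All others, such as Cd109 or Il6st, were chosen after their values were seen. Symbols are the table's; by identifier (24335 of 24607 matched to GENCODE M21) 1722 have changed, such as Emr1 to Adgre1. Some list members are counted but not reported by name here.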

Additional observations from a re-analysis of the deposited data

How the results depend on the processing

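Across 17 alternatives the counts higher and lower in co-culture stayed within 1.5 times the reported 2189 and 1939, and 0 calls changed direction. They were 2059 and 1960 with edgeR, 2298 and 2204 with DESeq2 and 2106 and 2135 with quantile normalization. Leaving out 1 library gave 1603 to 2452 higher and 1356 to 2149 lower, and 71.0% of the calls were called again without co-culture 2, the lowest share of any alternative. With the replicate number as a block they were 2088 and 1868. The numbers were not taken as pairing the samples: the deviations of same-numbered co-culture and TGF-β libraries correlated at 0.233, 0.044 and -0.147, and not every library correlated best with its own number. By Ddx3y, replicate 1 was male in all 3 groups (8547 to 10040) and replicates 2 and 3 were female, so sex matched by number. Of 175 named genes that were called, 169 were called under each alternative that gave them a value, which for some was fewer than 17; Prtn3, Flt1, Csf3r, Sdhc, Gbp4 and H2-Ab1 were not. Many of the 175 were named for a small p or a large difference in these same libraries, so their count does not measure robustness. Fcgr1 and Emr1, not called, passed with DESeq2 (adjusted p = 0.0391 and 0.0363). Without the filter 7 sensory neuron genes were higher, against 2. Genes with reads in co-culture only pass the filter by that group, and the TGF-β libraries, at 46.8 to 151.6 M reads, put a floor of 1.35 normalized counts under a group at 0.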

Other observations

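Other gene groups were counted in the same way, to be read against 13.4% higher and 11.9% lower over all tested genes. The respiratory chain list was under both shares. Of 24 macrophage transcription factors 12 were higher and 4 lower (median 0.27). The retinoid receptor gene Rxra was at 8921, 7953 and 7135 in co-culture and 4048, 3713 and 4488 with TGF-β (log2 difference 0.97 ± 0.10, adjusted p = 6.51e-06), and Klf4, a factor of alternative activation, at 776, 489 and 622 and 1994, 1545 and 2004 (log2 difference -1.55 ± 0.15, adjusted p = 3.86e-06). Maf (0.56 ± 0.10) and Cebpa (0.58 ± 0.11) were higher, and Spi1, the factor PU.1, did not pass (-0.08, adjusted p = 0.49). Pattern recognition genes gave 8 higher and 4 lower of 20 (median 0.22). Within a cluster of lectin receptor genes on chromosome 6, Clec4n, which reads fungal sugars, was at 17600, 21991 and 17123 and 1386, 1569 and 1048 (log2 difference 3.83 ± 0.18, adjusted p = 4.44e-08). Its neighbours Clec4d (-1.08 ± 0.17) and Clec4e (-0.89 ± 0.15) were lower. Lysosome genes gave 12 higher and 5 lower of 30 (median 0.22), with the proteases Ctsc (2.03 ± 0.10) and Ctsh (1.43 ± 0.10) higher and the acid lipase Lipa lower (-0.82 ± 0.09).

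Glycolysis and hypoxia genes gave 4 higher and 7 lower of 27. Of the hexokinases that open the pathway, Hk2 was at 10624, 10926 and 10856 in co-culture and 3648, 4196 and 3591 with TGF-β (adjusted p = 4.02e-08) and Pfkfb3, which speeds glycolysis, was higher (1.34 ± 0.10), while Hk1 was lower (-0.50 ± 0.10). Of the later enzymes Pfkl was higher (0.42 ± 0.09), Pfkp (-1.22 ± 0.09), Pgk1 (-0.67 ± 0.15) and Ldha (-0.45 ± 0.14) were lower, and Gapdh (-0.15, adjusted p = 0.308), Tpi1 (-0.32, adjusted p = 0.0683), Pgam1 (-0.03, adjusted p = 0.863) and Eno1 (-0.21, adjusted p = 0.16) did not pass. Respiratory chain genes gave 0 higher and 2 lower of 26; 6 were lower without TGF-β 3, and 1 without TGF-β 1 or 2 or co-culture 1 or 2. Cell cycle genes gave 2 higher (1 without TGF-β 1 or 2 or co-culture 1 or 2) and 7 lower of 30, with the D cyclins in opposite directions: Ccnd2 at 3408, 5727 and 4710 against 1129, 1624 and 1004 (log2 difference 1.87 ± 0.22, adjusted p = 8.67e-05) and Ccnd1 at 25136, 26102 and 26399 against 50447, 62422 and 47493 (log2 difference -1.04 ± 0.12, adjusted p = 1.60e-05). Of 22 cAMP and CREB genes 8 were higher and 5 lower (median 0.17), and the phosphodiesterase gene Pde3b was at 8078, 7537 and 8165 and 3102, 2793 and 2782 (log2 difference 1.45 ± 0.08, adjusted p = 3.14e-08). Of markers of other blood cells, neutrophil genes gave 2 higher (Prtn3 and Csf3r) of 3, or 1 of the 2 with a value in both groups. Of the 3, 0 were higher without TGF-β 1 or 2 or co-culture 1. Prtn3 was below 10 in every TGF-β library and met the filter through co-culture. Monocyte genes gave 1 higher and 2 lower of 7, with 2 higher without TGF-β 2 or 3 or co-culture 1 or 3. Dendritic cell genes gave 0 higher and 1 lower (Kit) of 5, and 0 and 0 of the 3 with a value in both groups. Kit was below 10 in every co-culture library and met the filter through the other groups. Lymphoid and mast cell genes gave 1 higher (Cd4) and 0 lower of 2. Immediate early genes gave 8 higher and 8 lower of 28, Fosb at 2.60 ± 0.34 and Fosl1 at -2.89 ± 0.30.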
